A study of Mus musculus with 6 samples.

Results

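The p53 target genes are 34 genes whose transcription p53 is known to control or which control p53 itself, and 31 of them had a named probe among 19057 named genes on the arrays. They were listed by name, as p53 and its feedback regulators, arrest targets, death targets, repair targets and metabolic targets, and the rule that picks them has no threshold on a measured value. A gene was found by the current or an older symbol of its probes and was represented by the probe with the highest mean over the 6 arrays. Trp53, Bax and Gdf15 were not analysed here.

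Intestinal RNA of 6 male mice (C57 in the labels, C57BL/6J in the study's methods) was measured, 1 array per mouse on the Illumina MouseWG-6 v2 BeadChip. Per the labels the mice were 4 weeks old, received 7 Gy as total body radiation, were then given PBS (3 mice) or free ubiquitin (free Ub, 3 mice), and had their intestines taken at 3.5 days. The study's own text gives an earlier time and older mice, and places the injection before the radiation in its methods and after it in 1 legend. All 6 mice were irradiated, and the response to radiation itself was not analysed here.

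p53 is a transcription factor that is held at a low level by the ubiquitin ligase Mdm2 and is released when DNA is damaged. It then binds its response element, a pair of short motifs with or without a spacer between them. Bound there, it switches on genes that stop the cell cycle, repair DNA, adjust metabolism or kill the cell. Genes that switch p53 off again are also switched on. In the intestine after radiation, p53 is known to act in the crypt, where it drives early death of stem and progenitor cells through Bbc3 and arrest through Cdkn1a.

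Single motifs of the response element can be seen in front of several of these genes, which is less than the complete pair. The motif searched was the p53 decamer, which has 10 bases: purines, then C, a pair of A or T bases, G, and pyrimidines. It reads the same on both strands, so 1 search covers both. In RefSeq promoter windows of 300 bases on GRCm38.p6, from 250 bases before to 50 after each start, 8.36% of 32851 windows held the decamer. Windows were found for 26 of the 34 genes, and 12 of these 26 genes (46.2%) had a decamer in at least 1 window, against 9.55% of 27025 genes. A match is a description of the sequence and was not measured as binding.

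A complete element, here 2 decamers at most 13 bases apart, was found in 24 of all windows (0.0731%) and in 1 of the 35 windows of these genes. That window lies before a start of Cdkn1a, which encodes the cell cycle inhibitor p21, on the plus strand at chr17:29090729-29090978, and its 2 decamers, in capitals, are separated by 12 bases. The 10 bases directly after the later decamer miss the motif only at their first base, and so are not marked. The 250 bases before the start are printed because this was the only window of these genes with a complete element as defined here.
Cdkn1a: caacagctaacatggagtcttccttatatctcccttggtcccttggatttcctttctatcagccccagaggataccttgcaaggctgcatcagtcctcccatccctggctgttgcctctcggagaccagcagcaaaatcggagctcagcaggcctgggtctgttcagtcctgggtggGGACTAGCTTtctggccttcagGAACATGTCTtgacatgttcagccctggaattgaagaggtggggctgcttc

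Decamers stood before members of all 5 groups, and 5 of the arrest, feedback and metabolic groups are printed to show how the motif varies between genes that are read by their signal below. The decamer is in capitals with its flanks, on the strand of the gene, at chr10:117710920-117710959 for Mdm2, chr11:85311107-85311146 for Ppm1d, chr11:40755447-40755486 for Ccng1, chr6:67037423-67037462 for Gadd45a and chr10:41887251-41887290 for Sesn1.
Mdm2: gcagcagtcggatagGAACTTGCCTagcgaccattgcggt
Ppm1d: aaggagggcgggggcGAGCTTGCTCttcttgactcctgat
Ccng1: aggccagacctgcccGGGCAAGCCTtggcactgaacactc
Gadd45a: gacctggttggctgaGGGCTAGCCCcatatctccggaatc
Sesn1: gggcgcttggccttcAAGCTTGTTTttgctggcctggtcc

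Values below are log2 signals as the authors normalized them, and a difference is free Ub minus PBS on that scale, where 1 is a doubling. Each array ends in a floor near 0, which held 32.2% to 33.7% of its probes. A value at the floor has no measured level. Of the 31 genes, 29 stayed clear of the floor in every sample and 21 had a mean above 6, the range in which replicates were closest (median SD within groups 0.19 over 6141 genes, against 0.90 under a mean of 4). The epithelial markers Vil1 (mean of the PBS samples 12.6) and Krt8 (13.7) were bright in the intestines, while Fabp1 was at the floor on 4 arrays. Exocrine pancreas genes such as Cela2a and Amy2a5 were also bright. All 7 measured pancreas markers were lower in mean with free Ub, none past the test, with a median difference of -0.97. Their log2 summed signal was 14.6 to 16.2 in the PBS samples and 12.6 to 16.1 in the free Ub samples, with free Ub 3 the lowest. The part of pancreatic RNA in the results was not tested. In bulk tissue, fewer cells of a type and less RNA per cell cannot be told apart.

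The p53 target genes as a whole stood at almost the same level with free Ub as with PBS. Of 31 measured genes, 14 were higher and 17 lower in mean, and the median difference was -0.02, beside -0.00 over all named genes and -0.03 over those clear of the floor in every sample. In the single samples, the median over the 31 genes of the signal minus the gene's mean was 0.01, -0.01 and 0.02 in PBS 1 to 3 and -0.03, 0.05 and -0.02 in free Ub 1 to 3. The 6 mice lay close together, and the groups overlapped.

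None of the 31 genes passed limma's moderated test with Benjamini-Hochberg adjustment over all genes (lowest adjusted p = 0.483), against 0.0577% of all named genes. At an unadjusted p under 0.05, 2 were higher with free Ub (Perp and Pmaip1) and 2 lower (Mdm4 and Ddit4), beside 2.24% and 3.33% of all genes. The samples of the groups did not overlap for 3 genes that were higher (Perp, Pmaip1 and Fas) and for the same 2 that were lower, beside 3.74% and 5.02% of all genes. A fold change above 2 with an unadjusted p under 0.05, the threshold in the methods, was met by 1 gene, Perp, beside 2.29% of all genes. With so few genes on each side, these counts are read as a description of single genes. The count of 4 at an unadjusted p fell to 1 without PBS 3 and to 2 without free Ub 2 or free Ub 3. It was 5 without free Ub 1. The share of all genes in fits that leave out a sample is not given, here or for the lists below.

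**Figure D1:**
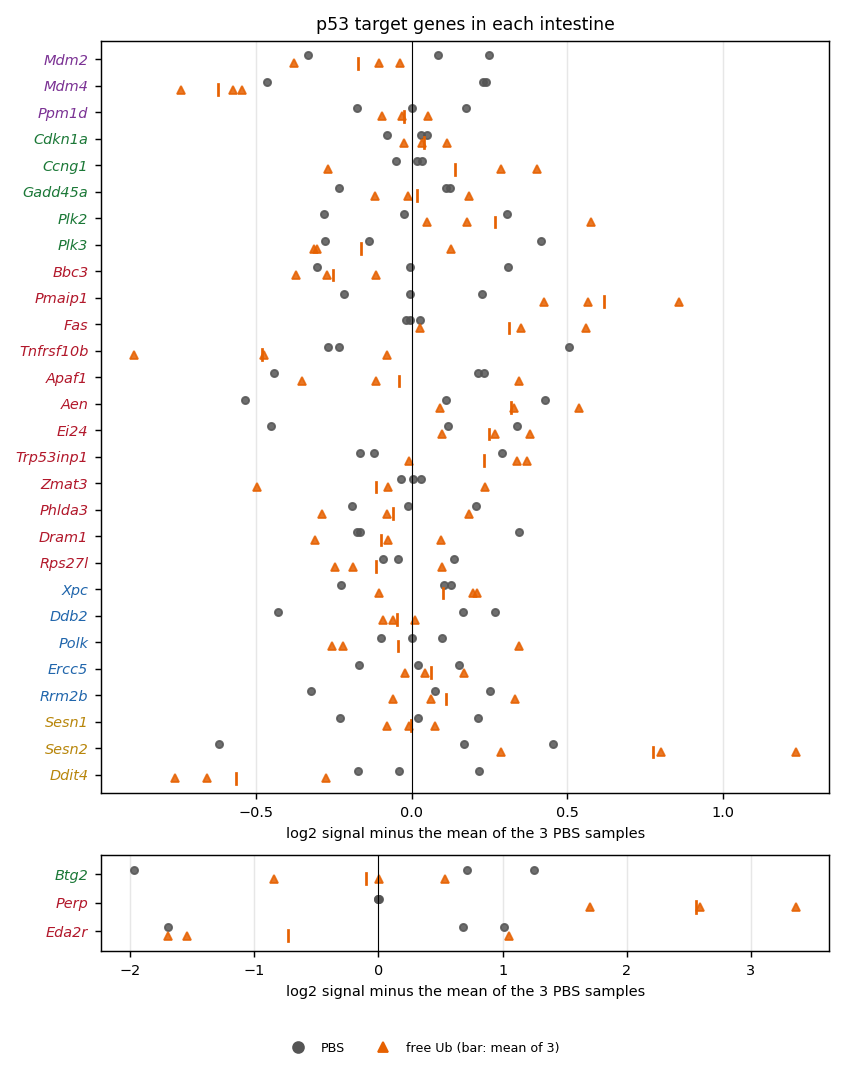
Signal of 31 p53 target genes in each of the 6 intestines, as the log2 signal minus the mean of the 3 PBS samples (x axis) for each gene (y axis, coloured by role as purple feedback, green arrest, red death, blue repair and ochre metabolic). Circles are PBS samples, triangles free Ub samples, and the bar is the mean of 3 free Ub samples. Btg2, Perp and Eda2r are drawn on a wider axis. Triangles and circles mix for most genes and separate for Mdm4, Pmaip1, Fas, Ddit4 and Perp.

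The arrays bounded the difference of most of these genes. The 95% interval of the difference lay inside a 2-fold change in either direction for 22 of 31 genes, and inside 1.5-fold for 9. Over all 19057 named genes, the interval lay inside 2-fold for 8903 and inside 1.5-fold for 5315. Among the p53 target genes with a mean above 6 it lay inside 2-fold for 19 of 21, beside 92.1% of the 6141 such genes on the arrays. The 2 exceptions among these bright genes were Tnfrsf10b and Ddit4.

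**Figure D2:**
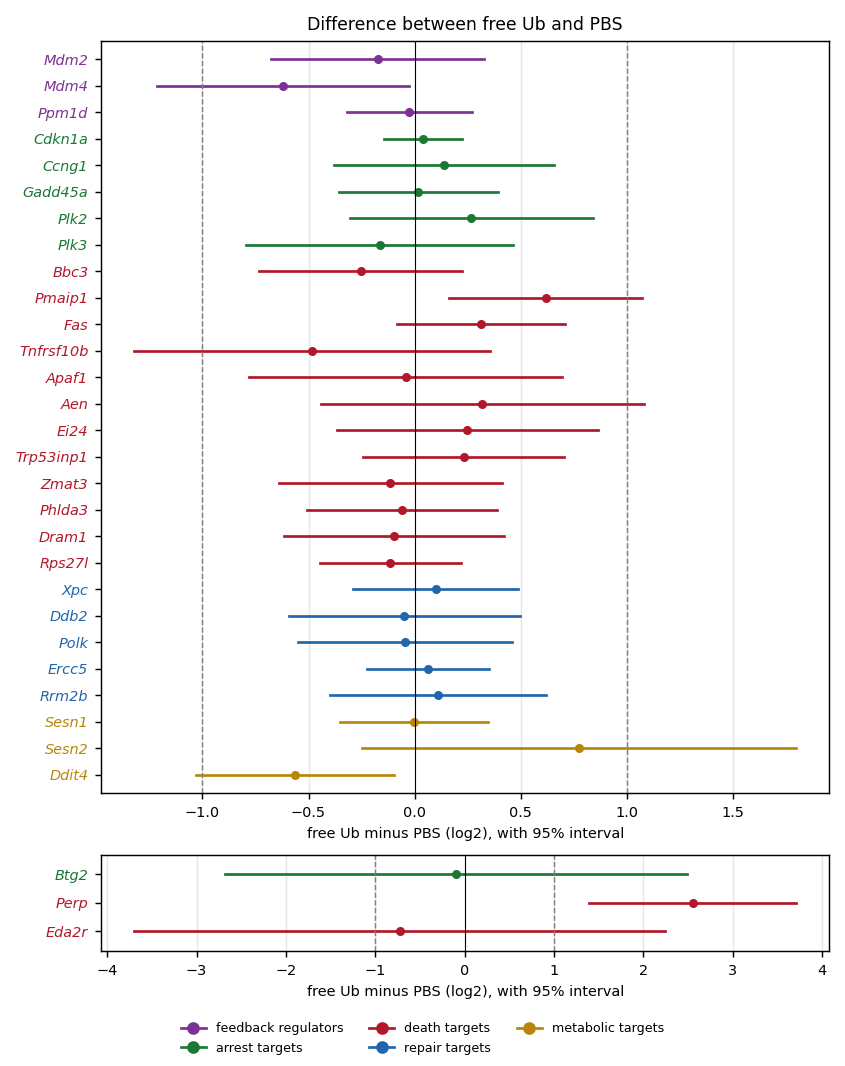
Difference between free Ub and PBS (x axis, log2) for 31 p53 target genes (y axis), with the point at the mean difference of 3 against 3 samples and the line its 95% interval from limma. Dashed lines mark a 2-fold change. The intervals of 22 genes lie between the dashed lines, and those of Btg2, Perp and Eda2r are wide.

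The feedback regulators were measured by 3 of 4 genes, all lower in mean (median difference -0.17). Mdm2, the ligase that marks p53 for destruction and is itself switched on by p53, had signals of 10.60, 10.76 and 10.18 in PBS 1 to 3 and 10.14, 10.48 and 10.41 in free Ub 1 to 3. The groups overlapped, with PBS 3 as low as the free Ub samples. The difference was -0.17 with a 95% interval of -0.68 to 0.33 (adjusted p = 0.900). A less bright probe of Mdm2 gave -0.00.

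Mdm4, the partner of Mdm2 that blocks the activating domain of p53, had signals of 3.59, 4.29 and 4.30 in PBS 1 to 3 and 3.48, 3.31 and 3.51 in free Ub 1 to 3. All free Ub samples lay below all PBS samples, PBS 1 by only a small step. The difference was -0.62 (95% interval -1.22 to -0.03, unadjusted p = 0.0433, adjusted p = 0.873). The other 4 probes of Mdm4 did not repeat it: the next brightest overlapped between the groups, at 4.09, 3.07 and 3.02 with PBS and 1.51, 3.91 and 3.88 with free Ub. The one after it was higher in every free Ub sample, with PBS 1 at the floor. With values under 4 raised to 4 the difference was -0.19 (unadjusted p = 0.133), and with a gene's probes averaged it was 0.23. The unadjusted p stayed under 0.05 in 1 of the 6 fits that left out a sample, that without PBS 1. Ppm1d, the phosphatase that takes activating phosphates off p53 and its kinases, differed by -0.02 (95% interval -0.32 to 0.27).

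The arrest targets were close to 0 (6 measured, 4 higher and 2 lower in mean, median difference 0.03, none at an unadjusted p under 0.05 and none without overlap). Cdkn1a had signals of 11.10, 11.20 and 11.22 with PBS and 11.29, 11.21 and 11.15 with free Ub. The 6 samples lay close together and the groups were interleaved. The difference was 0.04 with a 95% interval of -0.14 to 0.22, that is 0.906 to 1.17-fold (adjusted p = 0.970). The other 2 probes of Cdkn1a also overlapped between the groups, with differences of -0.07 and 0.18.

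Ccng1, a cyclin strongly induced by p53, had signals of 10.81, 10.79 and 10.72 with PBS and 10.50, 11.18 and 11.06 with free Ub. The PBS samples were close to each other, and the free Ub samples lay on both sides of them, with free Ub 1 the lowest of all 6. The difference was 0.14 (95% interval -0.38 to 0.66, adjusted p = 0.943). It was 0.34 without free Ub 1 (unadjusted p = 0.0116, adjusted p = 0.524), 0.067 without free Ub 3 and 0.0079 without free Ub 2. Gadd45a, a stress protein that slows the cell cycle and takes part in repair, differed by 0.02 (-0.36 to 0.39). The polo-like kinases Plk2 and Plk3 differed by 0.27 (-0.31 to 0.84) and -0.16 (-0.79 to 0.46). Btg2, an antiproliferative protein, was dim and scattered, from 0.81 to 4.03 in the PBS samples alone, so its difference of -0.10 has an interval of -2.69 to 2.49.

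**Figure D3:**
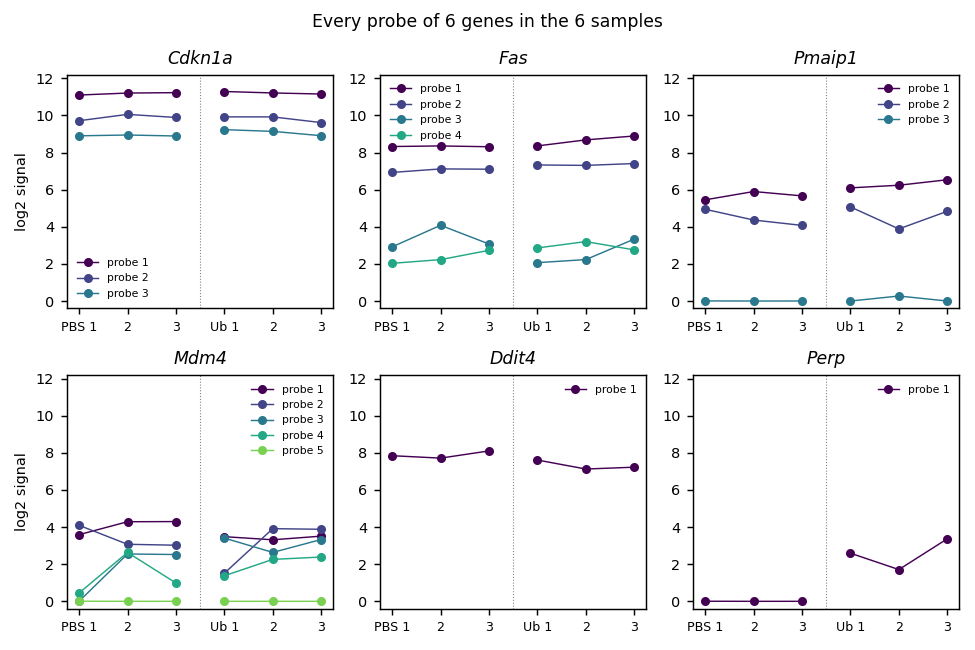
Log2 signal (y axis) of every probe of Cdkn1a, Fas, Pmaip1, Mdm4, Ddit4 and Perp in the 3 PBS and 3 free Ub samples (x axis), with probes numbered from the brightest and lines joining the samples of 1 probe and group for the eye only. The 3 probes of Cdkn1a are flat, the 2 brightest of Fas both separate the groups, and the probes of Mdm4 run in different directions.

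The death targets held the 3 members that were higher in every free Ub sample than in every PBS sample, beside 3.74% of all genes. Of these, Perp was at the floor in all PBS samples, and Fas separated by only a small step at its brightest probe. Of the 14 death targets measured, 8 were lower in mean and 6 higher, with a median difference of -0.05. Bbc3, the BH3-only protein PUMA that triggers mitochondrial death of crypt cells, had signals of 7.44, 6.82 and 7.12 with PBS and 7.01, 6.85 and 6.75 with free Ub. The groups overlapped through PBS 2. The difference was -0.25 (95% interval -0.73 to 0.22, adjusted p = 0.878). Dimmer probes of Bbc3 were higher in mean with free Ub and also overlapped. They differed by 1.80, with 1 array at the floor, and by 1.52, with 4 arrays at the floor.

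Pmaip1, the other BH3-only target, known as NOXA, was higher in mean with free Ub at its brightest probe. Its signals were 5.45, 5.90 and 5.66 with PBS and 6.10, 6.24 and 6.53 with free Ub. Every free Ub sample lay above every PBS sample. The difference was 0.62, or 1.53-fold (95% interval 0.16 to 1.07 on the log2 scale, unadjusted p = 0.0180, adjusted p = 0.771). It stayed between 0.50 and 0.73 when any 1 sample was left out, and of these 6 fits the unadjusted p was above 0.05 in that without PBS 3, at 0.0525. With a gene's probes averaged the difference was 0.28 (unadjusted p = 0.0688). A second probe of Pmaip1 overlapped between the groups (difference 0.14), and another was at the floor on 5 of 6 arrays.

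Fas, the death receptor for Fas ligand, had signals of 8.32, 8.35 and 8.31 with PBS and 8.36, 8.68 and 8.89 with free Ub. The groups did not overlap, but free Ub 1 was at the level of the PBS samples. The difference was 0.31 (95% interval -0.08 to 0.71, unadjusted p = 0.0963, adjusted p = 0.878). It was 0.46 without free Ub 1 (unadjusted p = 0.00893, adjusted p = 0.508), 0.19 without free Ub 3, and 0.10 with a gene's probes averaged. The second brightest probe of Fas separated the groups more clearly, at 6.93, 7.12 and 7.10 with PBS and 7.33, 7.31 and 7.41 with free Ub. Its difference was 0.30 (95% interval 0.12 to 0.48, unadjusted p = 0.00865, adjusted p over all probes 0.617). Of 2 dimmer probes of Fas, one overlapped (difference -0.81) and one did not (0.61).

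Perp, a membrane protein of desmosomes that takes part in p53-dependent death, was at the floor in all 3 PBS samples and had signals of 2.59, 1.71 and 3.37 in free Ub 1 to 3. It was the member with the lowest p (unadjusted p = 0.00265, adjusted p = 0.483), which stayed under 0.05 when any 1 sample was left out. Since all 3 PBS values were at the floor, the fits without a PBS sample are no separate support. With values under 4 raised to 4, Perp gave no value. A difference from the floor has no measured size, Perp had 1 probe, and its signals with free Ub lay where replicates scatter most. Eda2r, a receptor of the tumour necrosis factor family, was also at or near the floor on some arrays of both groups and did not separate them.

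The remaining death targets overlapped between the groups at their brightest probe. Tnfrsf10b, a death receptor for TRAIL, had a mean of 7.78 ± 0.44 with PBS and 7.30 ± 0.41 with free Ub (SD, n = 3 each), a difference of -0.48 (95% interval -1.32 to 0.36). Its second probe was lower in every free Ub sample, at 3.73, 4.43 and 4.00 with PBS and 1.20, 3.69 and 3.02 with free Ub. The difference of this probe was -1.41 (-3.33 to 0.51). Dimmer probes of Tnfrsf10b did not repeat it: they overlapped between the groups, with differences of 1.07, -0.0048 and 0.86. With a gene's probes averaged the difference was 0.0067. Apaf1, the scaffold of the apoptosome, differed by -0.04 (-0.78 to 0.70). Aen, a nuclease, differed by 0.32 (-0.44 to 1.08), and Ei24, a protein of the endoplasmic reticulum membrane, by 0.25 (-0.37 to 0.86). Trp53inp1, a stress protein that enhances p53 activity, differed by 0.23 (-0.24 to 0.71). The RNA-binding protein Zmat3 differed by -0.11 (-0.64 to 0.41), the Akt inhibitor Phlda3 by -0.06 (-0.51 to 0.39) and the autophagy regulator Dram1 by -0.10 (-0.61 to 0.42). Rps27l, a ribosomal protein-like target, differed by -0.11 (-0.44 to 0.22), or at most 1.16-fold higher by its interval.

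The repair targets had the narrowest spread of differences, from -0.05 to 0.11 over 5 genes (3 higher and 2 lower in mean, median 0.06, none without overlap). Xpc and Ddb2, which recognise damage for nucleotide excision repair, differed by 0.10 (95% interval -0.29 to 0.49) and -0.05 (-0.59 to 0.50). Without PBS 2, Ddb2 differed by -0.26 (unadjusted p = 0.0238). The nuclease Ercc5 of the same pathway differed by 0.06 (-0.23 to 0.35). Polk, a polymerase that copies past lesions, differed by -0.05 (-0.55 to 0.46), and Rrm2b, the p53-induced subunit of ribonucleotide reductase, by 0.11 (-0.40 to 0.62). The intervals of all 5 lay inside a 2-fold change. A dimmer probe of Ddb2, at 3.82 ± 0.15 with PBS and 4.25 ± 0.18 with free Ub (SD, n = 3 each), was higher in every free Ub sample, while its brightest probe overlapped.

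The metabolic targets were split. Ddit4, known as REDD1, an inhibitor of the growth kinase mTORC1, had signals of 7.84, 7.71 and 8.10 with PBS and 7.61, 7.13 and 7.23 with free Ub. Every free Ub sample lay below every PBS sample, free Ub 1 by only a small step. The difference was -0.57, or 1.48-fold lower (95% interval -1.03 to -0.10, unadjusted p = 0.0267, adjusted p = 0.823). Its unadjusted p was above 0.05 without PBS 1, PBS 3, free Ub 2 or free Ub 3, between 0.0632 and 0.0805, and Ddit4 had 1 probe.

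Sesn1 and Sesn2, which restrain mTORC1 and limit oxidative damage, did not move alike in the means. Sesn1 differed by -0.00 (95% interval -0.35 to 0.35). Sesn2 had a mean of 3.77 ± 0.56 with PBS and 4.54 ± 0.48 with free Ub (SD, n = 3 each), a difference of 0.78 (95% interval -0.25 to 1.80), and the groups overlapped. Its second probe gave -0.01. The difference between Sesn1 and Sesn2 was not tested.

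Several probes per gene gave a second reading. Of 18 genes with at least 2 probes clear of the floor in every sample, these all differed in the same direction for 7. Of 27 such probes beside the brightest, 4 did not overlap between the groups (2 of Fas and 1 of Ddb2 higher, 1 of Tnfrsf10b lower), beside 12.4% of 6039 such probes over all genes. Of the 21 genes with at least 2 probes, Fas was the only one with more than 1 probe that separated the groups in the same direction. The share of all genes for which this holds is not given here.

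Other p53 targets outside the 34 showed a median difference of -0.06 over 27 measured genes, with 10 higher and 16 lower in mean and 1 at the floor on all arrays. At an unadjusted p under 0.05, 4 were lower and 0 higher, all 4 without overlap, beside 3.33% lower, 2.24% higher and 5.02% lower without overlap over all genes, and 0 passed the adjusted test (lowest adjusted p = 0.640). Fuca1, a lysosomal fucosidase, had signals of 4.81, 4.91 and 4.60 with PBS and 4.28, 3.84 and 3.84 with free Ub, a difference of -0.79 (95% interval -1.22 to -0.36). Every free Ub sample lay below every PBS sample. Siva1, a proapoptotic adaptor, differed by -0.49 (-0.88 to -0.09), the adenylate kinase Ak1 by -0.48 (-0.85 to -0.11) and the zinc finger gene Zfp365 by -0.55 (-1.07 to -0.03). The count of 4 fell to 1 without PBS 1 and to 2 without free Ub 1.

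Among 27 measured kinases and modifiers that act on p53, 3 were higher and 2 lower at an unadjusted p under 0.05, beside 2.24% and 3.33% of all genes, 0 passed the adjusted test (lowest adjusted p = 0.808), and the median difference was 0.04. Kat5, the acetyltransferase TIP60, had signals of 4.94, 5.46 and 5.20 with PBS and 5.97, 5.95 and 5.51 with free Ub (difference 0.61, 95% interval 0.09 to 1.13). Daxx and Pml, partners in nuclear bodies that modulate p53, were lower in every free Ub sample, by -0.47 (-0.83 to -0.11) and -0.29 (-0.57 to -0.02). Cop1, a ubiquitin ligase for p53, differed by 0.50 (-0.00 to 1.00). The other 2 that were higher at an unadjusted p, Chek1 and Ppp1r13l, had values at the floor in at least 1 PBS sample. The kinases that start the damage signal, Atm, Atr and Prkdc, overlapped between the groups, with differences of -0.19, -0.32 and 0.07, as did Chek2, which acts after Atm, at 0.04. These kinases are named for their role and after their values were seen. The count of 5 was 3 without PBS 1 or PBS 2, 2 without free Ub 2, and 1 without free Ub 1 or free Ub 3.

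The genes that p53 is known to repress through p21, mostly genes of mitosis and DNA replication, gave 11 higher and 11 lower in mean and a median difference of 0.00. At an unadjusted p under 0.05 there were 0 of 22, beside 2.24% higher and 3.33% lower over all genes. Without overlap there were also 0, beside 3.74% higher and 5.02% lower over all genes. Foxm1, a transcription factor for mitotic genes, differed by -0.37 (95% interval -0.85 to 0.12), Cdc25c by 0.64 (-0.32 to 1.60), the mitotic kinase Cdk1 by 0.29 (-0.33 to 0.91) and Top2a by 0.41 (-0.48 to 1.30). The mice differed from each other more than the groups. The median over these 22 genes of the signal minus the gene's mean was 0.19, -0.14 and 0.00 in PBS 1 to 3 and -0.44, 0.30 and 0.30 in free Ub 1 to 3, with free Ub 1 the lowest of all and the other two free Ub samples the highest. Crypt stem and Paneth markers had the same lowest sample, with medians over 8 genes of -0.33, -0.18 and 0.34 with PBS and -0.57, 0.28 and 0.37 with free Ub. The part of crypt content in these values was not tested. Without free Ub 1, 2 of the 22 genes had an unadjusted p under 0.05, and 1 without free Ub 2. The share of all genes in these fits is not given here.

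**Figure D4:**
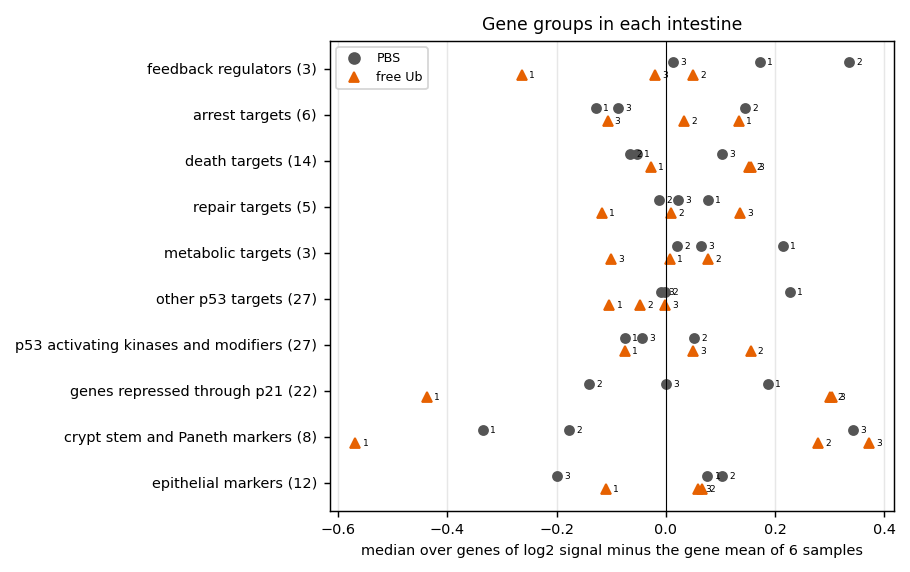
Median over the genes of each group (number of genes in brackets, y axis) of the log2 signal minus the gene's mean over the 6 samples (x axis), for each mouse. Circles are PBS and triangles free Ub samples, with the replicate number beside each. Samples of both groups mix in the p53 target groups, and free Ub 1 stands at -0.44 for genes repressed through p21 and at -0.57 for crypt stem and Paneth markers.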

How the data were processed

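Per the labels and the study's methods, total intestinal RNA of 6 mice was hybridised to Illumina MouseWG-6 v2 arrays. The authors normalized the signals by cubic spline in GenomeStudio (version not stated). The deposited values were read as log2, since their highest is 14.5 on every array; the sources used here do not describe the log transform, its base, any background correction or the floor. All arrays share 1 median (2.55), no detection p was used, and the number of arrays, the brightness of a probe and the differences between mice limit the precision. Values at most 0.01 above the lowest of an array were taken as at the floor.

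Of 45281 probes, 34885 had 1 gene name, 18 had several and were left out, and the rest were unnamed here. Each gene was its brightest probe. Free Ub was compared with PBS over 19057 genes with limma 3.58.1 under R 4.3.3. The settings were lmFit, then eBayes, two-sided, no covariate, Benjamini-Hochberg over all genes and a threshold of 0.05. A test on simulated data came first and covered only probes with a mean above 6. It did not check dim genes or values at the floor. Probes other than the brightest were fitted over all probes. An exact permutation test of 3 against 3 cannot go below p = 0.1. The p-values measure the spread between these mice.

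The members and the lists were chosen with earlier results of these data known. Every member is named: values in every sample are given for members with an unadjusted p under 0.05 or without overlap and for Cdkn1a, Mdm2, Ccng1 and Bbc3. From each other p53 list the up to 4 genes with the smallest p among those above the floor are named. Alternatives were other normalizations, floors and filters, the mean of a gene's probes, all probes, an intensity trend, a replicate block, Student's t-tests, which the methods name, and leaving out each sample. Leaving out each sample for the other p53 lists was added after seeing the data.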

Additional observations from a re-analysis of the deposited data

How the results depend on the processing

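The p53 target genes gave 0 adjusted calls under all 17 alternatives. The count of 4 at an unadjusted p under 0.05 was 2 with values under 4 raised to 4. It was also 2 when a gene's probes were averaged and with the paired Student's t-test. When 1 sample was left out it was 1 to 5. The share of all genes under each alternative is not given here. Of the 31 genes, 29 gave a value with values under 4 raised to 4 and with each filter on dim genes. The median difference of -0.024 was 0.040 when a gene's probes were averaged and -0.022 to 0.052 when 1 sample was left out. Direction was kept under every alternative that gave a value by 11 genes and changed under at least 1 by 20; the cause was not tested.

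When a gene's probes were averaged, dim ones and those at the floor included, the difference changed sign for 10 genes, to 0.24 for Mdm2, 0.23 for Mdm4, 1.02 for Bbc3, 0.0067 for Tnfrsf10b, 0.056 for Apaf1, -0.031 for Aen, -0.13 for Xpc, 0.090 for Ddb2, 0.085 for Sesn1 and -0.022 for Sesn2.

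When 1 sample was left out, the difference changed sign at least once for 14 genes, with ranges of -0.11 to 0.063 for Ppm1d, -1.08 to 0.53 for Btg2, -0.10 to 0.087 for Gadd45a, -0.26 to 0.11 for Apaf1, -0.26 to 0.086 for Ddb2, -0.12 to 0.10 for Sesn1, -0.31 to 0.043 for Plk3, -0.015 to 0.20 for Xpc, -0.24 to 0.062 for Polk, -0.18 to 0.052 for Phlda3, -0.19 to 0.074 for Dram1, -0.022 to 0.14 for Ercc5, -0.052 to 0.24 for Rrm2b and -0.29 to 0.078 for Zmat3.

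The replicate numbers of the labels gave no sign of pairing the mice: the correlations of same-numbered samples' deviations from their group means were -0.01, -0.01 and -0.14. With 3 mice per group, such deviations depend on each other and cannot exclude a pairing. With the replicate block in limma, 0 genes passed the adjusted test and 3 had an unadjusted p under 0.05: Perp, Pmaip1 and Plk2, which was gained, while Mdm4 and Ddit4 were lost. The methods' paired Student's t-test left Perp and Plk2, so that Pmaip1, Mdm4 and Ddit4 were lost. The unpaired one left Perp, Pmaip1 and Ddit4, and Mdm4 was lost.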
